A study of Mus musculus with 8 samples.

Results

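Cytosolic ribosomal protein genes encode the proteins that, with the ribosomal RNAs, build the large and the small subunit of the ribosome outside mitochondria. They were taken here by gene symbol (Rpl and Rps with a number, Rplp0 to Rplp2, and Rpsa), which gave 83 of the 24047 rows of the deposited count table. Of these, 51 belong to the large and 32 to the small subunit. The samples were tdTomato-positive cells sorted as astrocytes from the somatosensory cortex of mice aged 23 to 25 postnatal days. The 4 Ptch1cKO samples came from Glast-CreERT2;Ptch1fl/fl;Ai14 mice, and the 4 WT samples from Glast-CreERT2;Ai14 mice, whose Ptch1 is normal. All 8 samples therefore carried the Cre driver and the reporter, and all animals received intraperitoneal tamoxifen on postnatal days 12 to 14, as 10 to 15 µl of a 20 mg/ml solution. Ptch1 encodes the receptor that restrains Sonic hedgehog signalling, so the comparison asks how transcripts in these cells differ when that restraint is removed. The Glast promoter drives Cre in astrocytes and in other cells of glial lineage that use it, and tdTomato reports that Cre acted on the Ai14 allele, not that both copies of Ptch1 were recombined. In RNA from a pool of sorted cells, fewer cells of a type and less RNA per cell cannot be told apart.

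Ribosomal protein mRNAs are among the most abundant in any cell, and their products are made in matched amounts because each ribosome takes up nearly all of them in equal number. Many of these mRNAs start with a C followed by an unbroken run of pyrimidines, the terminal oligopyrimidine (TOP) motif, through which the kinase mTORC1 and the protein Larp1 set how well they are translated. In astrocytes, part of the ribosome pool sits in the fine processes near synapses, where local translation has been described. The RNA measured here reports the amount of each mRNA and not its translation.

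Start site windows are shown for the member with the smallest p (Rpl7a), a stalk protein (Rplp2), the S6 kinase target (Rps6), members compared with a paralog below (Rpl22l1, Rps27) and, for contrast, the stalk base protein Rplp0. Each line holds 20 bases before the RefSeq transcript start on GRCm38.p6 and the first 10 bases of the transcript, 5′ to 3′ on the gene's strand. Capitals mark a pyrimidine tract, meaning a C within 5 bases of the annotated start, followed by pyrimidines, at least 8 bases in all. Bases before that C were not examined, so a marked tract can be part of a longer run, as in the Rpl7a line. The Rpl22l1 tract runs on past the end of its line.
Rpl7a, chr2:26910787-26910816, plus strand: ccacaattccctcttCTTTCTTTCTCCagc
Rplp2, chr7:141447631-141447660, plus strand: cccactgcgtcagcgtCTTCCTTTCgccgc
Rps6, chr4:86857358-86857387, minus strand: gggttaagcggaagtcgggCCTCTTTTTCg
Rpl22l1, chr3:28805488-28805517, plus strand: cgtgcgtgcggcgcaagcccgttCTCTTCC
Rps27, chr3:90213639-90213668, minus strand: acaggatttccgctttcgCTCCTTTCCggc
Rplp0, chr5:115559447-115559476, plus strand: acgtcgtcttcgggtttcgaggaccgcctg
Such a tract was found for 21 of the 62 members that the RefSeq table holds (33.9%), in 13 of 39 large and 8 of 23 small subunit genes. Such a tract was found for 5.17% of all 27025 genes it holds. Only the gene's own strand was searched. The Rplp0 window holds no tract of this length, which says only that these letters are not next to the annotated start. The windows of Rpl22 and Rps27l, the partners of Rpl22l1 and Rps27, hold none either and are not shown. The lines shown thus hold a tract more often than the members as a whole.

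Total counts were 4061274 to 7043378 in the Ptch1cKO and 4958119 to 7206462 in the WT libraries. The labels do not say whether the samples came from separate animals, so much of the spread behind every p-value may be technical. The gene targeted in the mutants, Ptch1, had 219, 249, 168 and 258 CPM (counts scaled to the size of each library) in Ptch1cKO replicates 1 to 4, against 285, 227, 491 and 425 CPM in WT replicates 1 to 4. The groups overlapped, and the log2 fold change of -0.67 (SE 0.22) did not pass the test (edgeR adjusted p = 0.349). Which exons the floxed allele loses is not given in the labels, and reads from the remaining exons would still be counted. One library stood apart for the genes described here: Ptch1cKO replicate 3, which also had the lowest depth, held more ribosomal protein counts than any other, so group values are given with and without it. WT replicates 2 and 3 held 1148 and 612 Xist counts, and the other 6 libraries at most 4. Ddx3y, a gene of the Y chromosome, had 0 counts in those 2 libraries and 498 to 1073 in the other 6. The WT libraries thus held both female and male patterns and did not all come from the same animals. All 4 Ptch1cKO libraries had the male pattern, so sex was not balanced between the genotypes. Astrocyte markers such as Slc1a2, Aldoc and Ndrg2 were abundant in every library, with a summed level of 27042 to 51606 CPM in Ptch1cKO and 30842 to 44716 CPM in WT. Markers of other cells were present too: the oligodendrocyte lineage list summed to 17546 to 23201 CPM in Ptch1cKO and 13807 to 26692 CPM in WT, and the neuronal list to 4775 to 5865 CPM in Ptch1cKO and 4904 to 6505 CPM in WT. The microglial list summed to 509 to 1273 CPM in Ptch1cKO and 445 to 834 CPM in WT, and the endothelial and mural list to 17.5 to 34.8 CPM in Ptch1cKO and 22.4 to 39.6 CPM in WT. The log2 fold change was above 0 in 14 of 14 tested microglial markers (median 0.72), 10 of 11 oligodendrocyte lineage markers (median 0.41) and 12 of 15 astrocyte markers (median 0.14). It was above 0 in 4 of 12 neuronal markers (median -0.10) and 1 of 5 endothelial and mural markers (median -0.54). None of these genes was called by edgeR, where 0.100% of all genes tested were. An unadjusted edgeR p under 0.05 was reached by 5 oligodendrocyte lineage markers (45.45%) and 4 microglial markers (28.57%), all higher in Ptch1cKO. It was also reached by 2 astrocyte markers (13.33%) and 1 neuronal marker (8.33%), all higher, and 1 endothelial or mural marker (20%), lower. The share over all genes tested was 9.34%. The part of these differences in the ribosomal protein values was not tested. The choroid plexus, ependymal and blood list summed to 3.27 to 7.27 CPM in Ptch1cKO and 3.77 to 37.9 CPM in WT. Its 4 globin genes had no count in any library, but Alas2 had 28 counts over the Ptch1cKO and 38 over the WT libraries. Ttr had 1 count over the Ptch1cKO and 197 over the WT libraries, 192 of them in 1 library.

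None of the ribosomal protein genes was called different between Ptch1cKO and WT. Of the 83 members, 76 were abundant enough to be tested (45 large, 31 small), and 0 of these had an adjusted p under 0.05 in edgeR's quasi-likelihood test over all 10954 genes, where 0.100% of all genes tested were called. DESeq2 called 0 members as well. An unadjusted p under 0.05 was reached by 2 of the 76, Rpl7a and Rps14, or 2.63% of them, against 9.34% of all genes tested. Log2 fold changes (Ptch1cKO over WT) of the members lay between -0.46 for Rps14 and 0.57 for Rpl7a, and 61 of 76 lay within 0.25 of 0. Their standard errors lay between 0.13 and 0.51, with a median of 0.18. The log2 fold change was above 0 in 52 of 76 members (68.4%), against 49.6% of all genes tested, with a median of 0.09 over the members and -0.0019 over all genes. Without Ptch1cKO replicate 3, 20 of 76 were above 0 and the median was -0.09, so this direction rests on that library. The sign also depends on the table: in the authors' TPM values, 26 of the 76 members in that fit were above 0. The median there was -0.05 over the members and -0.09 over all genes. All genes were thus shifted down on that scale, and the members' median stayed above that of all genes, as in the counts.

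**Figure D1:**
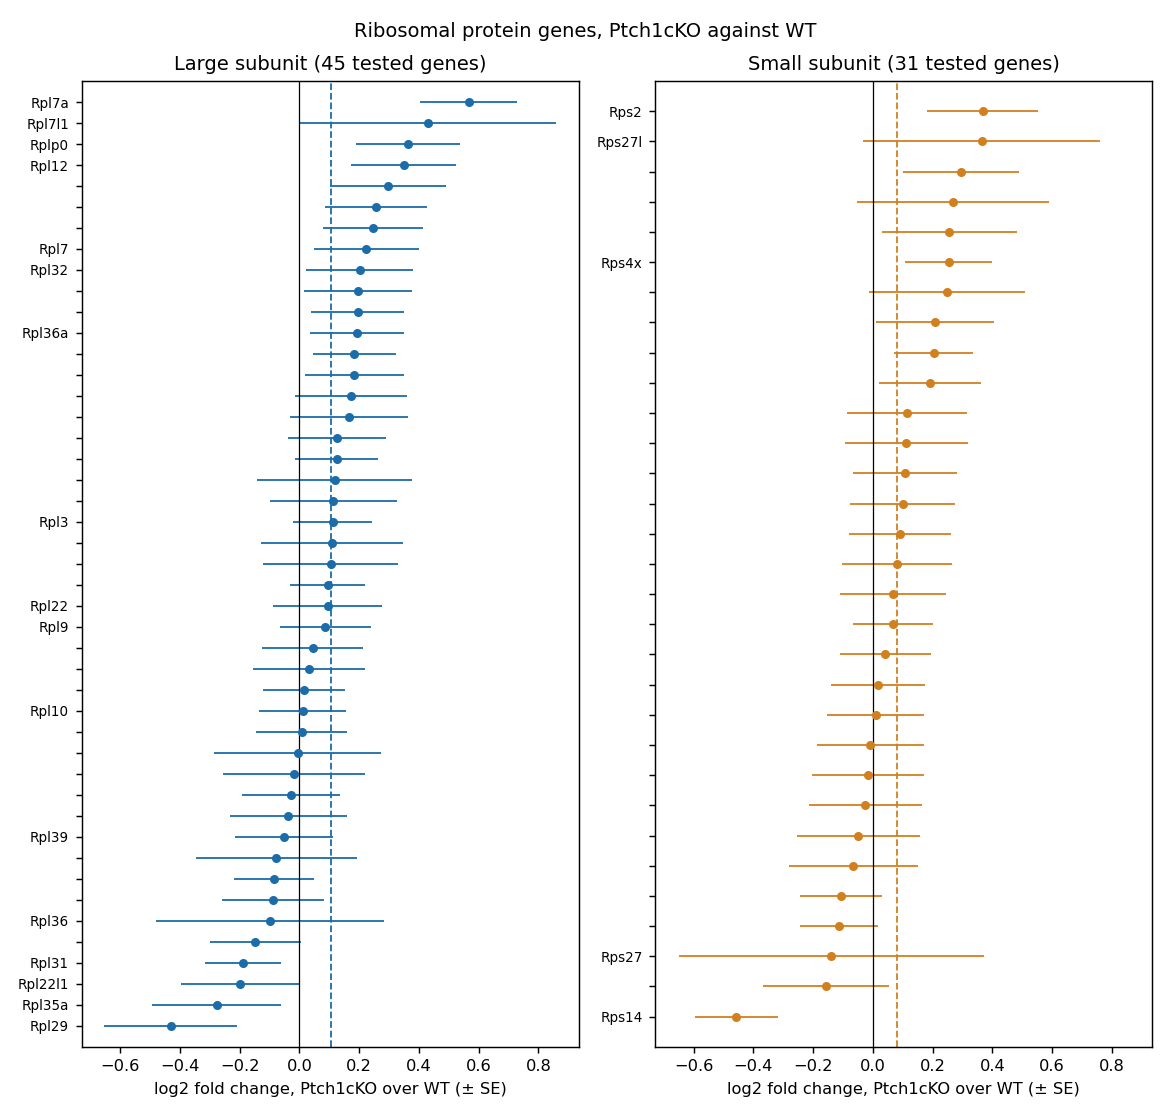
Log2 fold change (Ptch1cKO over WT, x axis) of each tested ribosomal protein gene, with bars of 1 standard error from edgeR; the left panel holds the 45 large and the right the 31 small subunit genes, ordered by value and with the names of those picked by the naming rule, and dashed lines mark each subunit's median (0.10 and 0.08). Most points lie within 0.25 of the line at 0, Rpl7a is the highest and Rps14 the lowest.

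Among large subunit genes, Rpl7a, a member of the L7Ae family of RNA-binding proteins, had the smallest p. It had 283, 296, 461 and 299.7 CPM in Ptch1cKO replicates 1 to 4, against 260.1, 237, 214 and 193 CPM in WT replicates 1 to 4. Every Ptch1cKO library was above every WT library. Rpl7a was the 1 member of the 76 tested whose groups did not overlap, against 5.02% of all genes tested. Members whose groups parted with Ptch1cKO higher were thus 1 of 76, against 2.52% of all genes, and with Ptch1cKO lower 0 of 76, against 2.50%. Its log2 fold change was 0.57 (SE 0.16), a 1.48-fold higher level, with an adjusted p of 0.300 by edgeR. Without Ptch1cKO replicate 3 the log2 fold change was 0.37 (SE 0.13, adjusted p = 0.505 by edgeR), and over all alternatives tried its adjusted p lay between 0.0178 and 0.563. Of the 50-base words in the Rpl7a coding sequence, 93.3% also occur in transcripts of other annotated genes, 123 in all, so its counts may be shared with near-identical copies.

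The P stalk is the flexible arm of the large subunit that recruits elongation factors, and its base protein Rplp0 carries the dimers of Rplp1 and Rplp2. Rplp0 had 169, 183, 282 and 198 CPM in Ptch1cKO replicates 1 to 4, against 189, 185, 131 and 139.8 CPM in WT replicates 1 to 4. Replicate 3 was the highest Ptch1cKO library and the other 3 lay within the WT range or just above it. The log2 fold change of 0.36 (SE 0.18) did not pass (edgeR adjusted p = 0.551). Rpl12, which binds the stalk base beside Rplp0, had 292, 370.3, 548 and 334 CPM in Ptch1cKO, against 328, 341, 294 and 249 CPM in WT (log2 fold change 0.35, SE 0.18, edgeR adjusted p = 0.578). Rplp1 averaged 643 ± 278 CPM in Ptch1cKO and 592 ± 164 CPM in WT, and Rplp2 averaged 228 ± 80.0 CPM in Ptch1cKO and 211 ± 59.6 CPM in WT (SD, n = 4 each). For both, the difference was smaller than the spread between replicates. Without Ptch1cKO replicate 3 the log2 fold changes of Rplp0 and Rpl12 were 0.18 and 0.13.

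Rpl5 and Rpl11 form, with 5S ribosomal RNA, a particle that joins the large subunit and can also bind the p53 regulator Mdm2 when ribosome assembly is disturbed. Rpl5 averaged 625 ± 109 CPM in Ptch1cKO and 662 ± 56.1 CPM in WT, and Rpl11 averaged 749 ± 125 CPM in Ptch1cKO and 741 ± 82.1 CPM in WT (SD, n = 4 each). Their log2 fold changes were -0.08 (SE 0.13) and 0.01 (SE 0.14). Rpl4, Rpl17 and Rpl39 line the tunnel through which the growing chain leaves the ribosome. Rpl4 averaged 1784 ± 298 CPM in Ptch1cKO and 1671 ± 83.3 CPM in WT, and Rpl17 averaged 1084 ± 321 CPM in Ptch1cKO and 961 ± 181 CPM in WT (SD, n = 4 each). For Rpl5, Rpl11, Rpl17 and Rpl39 (values with the X-linked members below) the difference was smaller than the SD of either group. For Rpl4 it was smaller than the SD in Ptch1cKO but larger than that in WT (log2 fold change 0.09, SE 0.13).

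On the lower side of the large subunit, Rpl29 had 32.5, 30.4, 48.7 and 31.9 CPM in Ptch1cKO replicates 1 to 4, against 59.6, 59.6, 36.5 and 37.1 CPM in WT replicates 1 to 4. Only Ptch1cKO replicate 3 reached into the WT range, and the log2 fold change of -0.43 (SE 0.22) did not pass (edgeR adjusted p = 0.587). Rpl31, which sits at the exit of the tunnel, averaged 782 ± 112 CPM in Ptch1cKO and 891 ± 86.5 CPM in WT (log2 fold change -0.19, SE 0.13). Rpl35a, a gene mutated in some human Diamond-Blackfan anaemias, averaged 22.4 ± 5.84 CPM in Ptch1cKO and 27.1 ± 1.19 CPM in WT (log2 fold change -0.28, SE 0.22; SD, n = 4 each). The groups overlapped for both genes.

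Among small subunit genes, Rps14 had the smallest p. Its protein lies on the platform, beside the channel by which mRNA leaves, and in humans loss of 1 copy of the gene underlies the anaemia of the 5q- syndrome. It had 256, 269, 359.9 and 249 CPM in Ptch1cKO replicates 1 to 4, against 346, 388, 389.8 and 432 CPM in WT replicates 1 to 4. Ptch1cKO replicates 1, 2 and 4 were below every WT library, and replicate 3 was above the lowest WT library. The log2 fold change was -0.46 (SE 0.14), or 0.728 of the WT level, with an adjusted p of 0.325 by edgeR. Without Ptch1cKO replicate 3 it was -0.59 (SE 0.12, adjusted p = 0.118 by edgeR), and over all alternatives tried its adjusted p lay between 0.108 and 0.669. Of the other proteins at that channel, Rps26 averaged 65.7 ± 19.9 CPM in Ptch1cKO and 67.7 ± 11.9 CPM in WT, and Rps28 averaged 9.61 ± 3.89 CPM in Ptch1cKO and 7.86 ± 1.98 CPM in WT (SD, n = 4 each).

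Rps2 and Rps3 form part of the channel through which mRNA enters the small subunit. Rps2 had 122, 126, 217 and 165 CPM in Ptch1cKO replicates 1 to 4, against 102, 132, 108 and 145 CPM in WT replicates 1 to 4. Ptch1cKO replicates 3 and 4 were above the WT range and the other 2 within it, and the log2 fold change of 0.37 (SE 0.19) did not pass (edgeR adjusted p = 0.578). Rps3 averaged 737 ± 118 CPM in Ptch1cKO and 797 ± 72.6 CPM in WT, with a log2 fold change of -0.11 (SE 0.13). Rps6, whose phosphorylation by S6 kinase is read as mTORC1 activity, averaged 139 ± 32.5 CPM in Ptch1cKO and 133 ± 21.9 CPM in WT. Rps27a, made as a fusion to ubiquitin, averaged 133 ± 38.7 CPM in Ptch1cKO and 123 ± 6.65 CPM in WT. Rpsa, first described as a laminin receptor, averaged 1533 ± 226 CPM in Ptch1cKO and 1331 ± 161 CPM in WT (SD, n = 4 each).

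**Figure D2:**
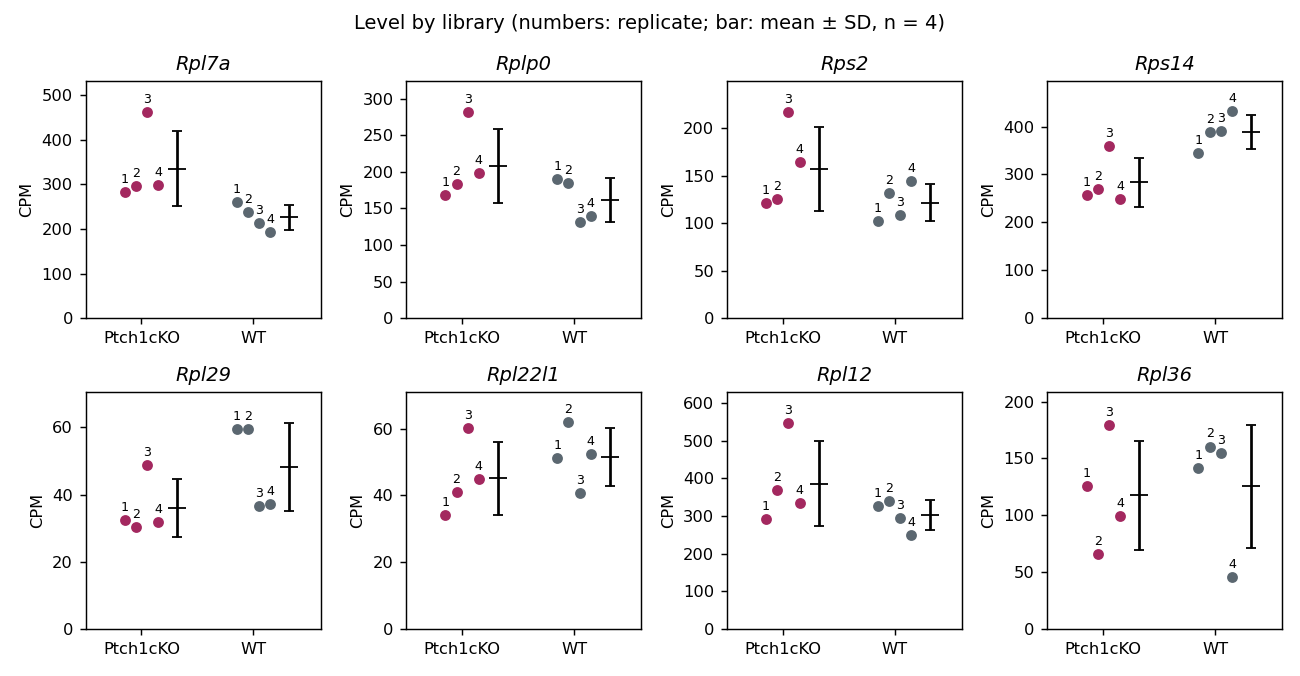
CPM (y axis, from 0) of 8 ribosomal protein genes in each library, Ptch1cKO left and WT right; numbers are replicates, and bars give the mean ± SD of 4. Ptch1cKO replicate 3 is the highest Ptch1cKO library in all 8 panels, the groups do not overlap for Rpl7a, and WT replicate 4 is far below the other WT libraries for Rpl36.

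The 2 subunits had nearly the same values in both genotypes. The median log2 fold change was 0.10 over the 45 large subunit genes (31 above 0) and 0.08 over the 31 small subunit genes (21 above 0). Large subunit counts were 1.80, 1.73, 1.78 and 1.76 times the small subunit counts in Ptch1cKO replicates 1 to 4, and 1.76, 1.74, 1.84 and 1.79 times in WT replicates 1 to 4. The ratio averaged 1.77 ± 0.0300 in Ptch1cKO and 1.78 ± 0.0424 in WT (SD, n = 4 each), a difference within the spread. In each library the medians of both subunits moved together: they were highest in Ptch1cKO replicate 3, at 0.50 for the large and 0.49 for the small subunit above each gene's mean log2 CPM over the 8 libraries. The low libraries also had both subunits low, with -0.14 and -0.28 in Ptch1cKO replicate 1, and -0.15 and -0.18 in WT replicate 3.

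**Figure D3:**
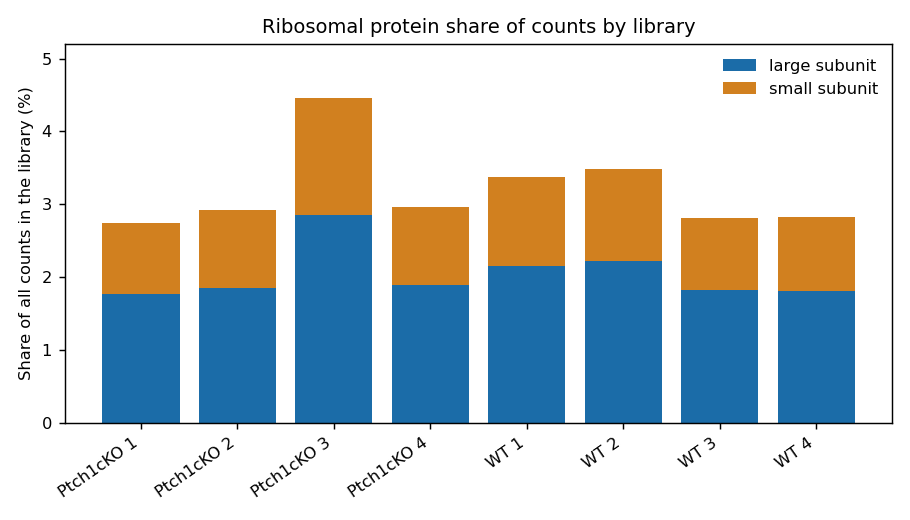
Share of all counts in each library (y axis, percent, from 0) held by large and small subunit genes, stacked, for the 4 Ptch1cKO and then the 4 WT libraries. Ptch1cKO replicate 3 reaches 4.46%, the other 7 libraries lie between 2.74 and 3.49%, and the 2 parts keep nearly the same proportion.

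Summed over all 83 genes, ribosomal proteins took 2.74, 2.93, 4.46 and 2.96% of counts in Ptch1cKO replicates 1 to 4, and 3.37, 3.49, 2.81 and 2.83% in WT replicates 1 to 4. The Wilson 95% interval for Ptch1cKO replicate 3 was 4.44 to 4.48%, which covers counting error only. The share averaged 3.27 ± 0.796% in Ptch1cKO and 3.13 ± 0.355% in WT (SD, n = 4 each), a difference well inside the spread. Without Ptch1cKO replicate 3 the mutant mean was 2.88 ± 0.119% (SD, n = 3), below the WT mean.

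The excess in Ptch1cKO replicate 3 ran through nearly the whole set. Of the 76 tested members, 67 were highest in that library, against 15.14% of all genes tested, and 75 were above their mean in the other 7 libraries. The median excess was 0.57 log2 units over the members and 0.02 over all genes tested. It was largest for Rplp1 (0.96), Rps28 (0.96), Rps10 (0.94) and Rpl7a (0.87), and smallest among the 75 for Rps14 (0.14) and Rpl35a (0.15). Rpl7l1, a paralog of Rpl7, was the exception at -1.17. Rpl8, Rpl4 and Rps3 share under 25% of their 50-base words with other genes and had an excess of 0.59, 0.43 and 0.29. Ribosomal components outside the symbol rule, such as Fau, Rps3a1 and Gnb2l1 (the gene of the scaffold Rack1), were also high there, with a list median of 0.52 above their 8-library mean, as were translation factors with TOP mRNAs (0.27). Mitochondrial ribosomal proteins were not (0.05). In the same library the microglial list had its highest median (0.98) and the astrocyte list a median of -0.25, and other genes with 500 coding bases or less had a median of 0.14. The dissociation and stress list also had its highest median there, 0.49 over 8 tested genes, against -0.46 to 0.21 in the other 7 libraries. Its summed level of 526 CPM lay within the 379 to 537 CPM of those libraries. The part of these in the ribosomal protein excess was not tested.

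**Figure D4:**
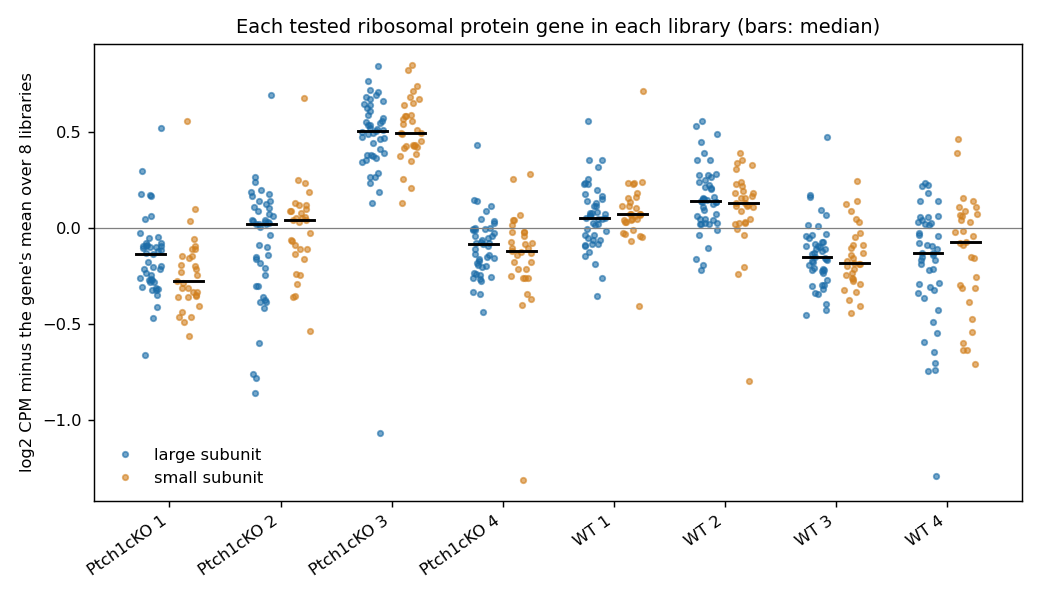
Each tested ribosomal protein gene (point) in each library: log2 CPM minus the gene's mean over the 8 libraries (y axis), large subunit left and small subunit right within each library, with bars at the medians. In Ptch1cKO replicate 3 nearly all points lie above 0, around 0.50, and in the other 7 libraries both medians lie between -0.28 and 0.14.

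A second library pattern followed base composition. The 21 tested members with a coding GC content of 55% or more had medians of -0.24 in Ptch1cKO replicate 2 and -0.30 in WT replicate 4, relative to each gene's 8-library mean. The 36 members with 50 to 55% GC had medians of 0.04 in Ptch1cKO replicate 2 and -0.04 in WT replicate 4, and the 19 with under 50% had the same 0.04 and -0.04. In the other 6 libraries the GC-rich members were level with the rest or above them. Across the 76 members, the deviation correlated with GC content with r = -0.41 (rho -0.40) in Ptch1cKO replicate 2 and r = -0.46 (rho -0.45) in WT replicate 4, as a description over genes that share these libraries. Across 10222 other genes the same values were r = -0.13 and -0.19. In the other 6 libraries r was above 0. Across the members it lay between 0.02 in Ptch1cKO replicate 4 and 0.30 in Ptch1cKO replicate 1. Across the other genes it lay between 0.01 in Ptch1cKO replicate 4 and 0.16 in Ptch1cKO replicate 3. Deviations are taken from each gene's 8-library mean, so negative values in 2 libraries push the others upward, and the positive r is partly built in. Rpl36, the most GC-rich member at 61.6%, had the largest range of any tested member: 126, 65.7, 179.6 and 99.7 CPM in Ptch1cKO replicates 1 to 4, against 142, 160.4, 154 and 45.3 CPM in WT replicates 1 to 4. Rps27, with at most 17 counts in a library, had the next largest range. The negative correlations thus came from 1 library of each genotype. Without those 2 libraries, 0 members were called by edgeR. An unadjusted edgeR p under 0.05 was reached by 3 of 76 members, against 985 of all 11097 genes in that fit. There 53 of 76 log2 fold changes were above 0, with a median of 0.08 over the members and -0.0005 over all genes.

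**Figure D5:**
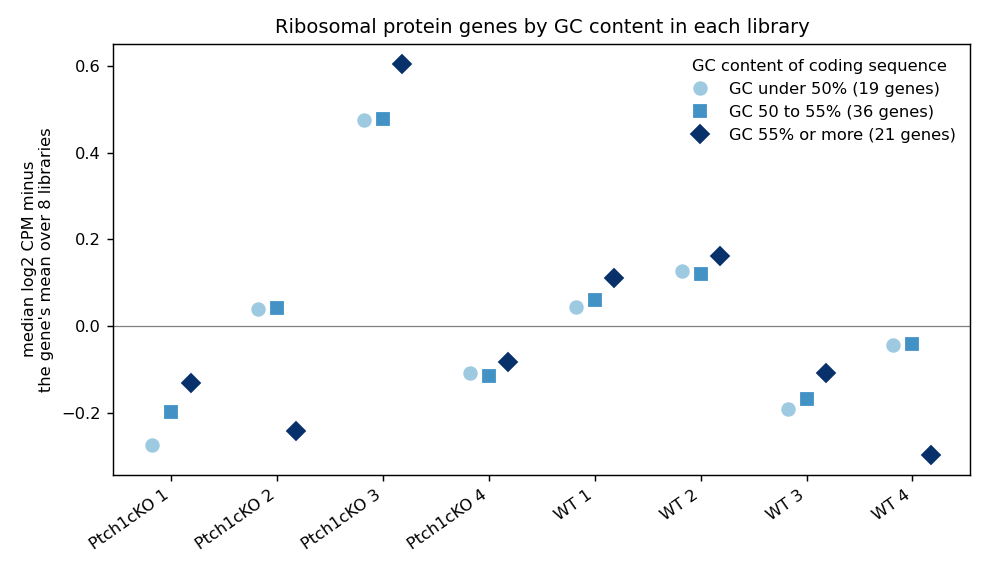
Median of log2 CPM minus the gene's mean over the 8 libraries (y axis) for ribosomal protein genes in 3 classes of coding GC content, in each Ptch1cKO and then each WT library. In Ptch1cKO replicate 2 and WT replicate 4 the GC-rich class lies below the other 2 classes, at -0.24 and -0.30, and elsewhere it does not.

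Levels differed widely between members. On the authors' TPM scale, which divides by transcript length, Rpl9 and Rpl32 were highest. Rpl9 averaged 13361 ± 2692 TPM in Ptch1cKO and 13723 ± 671 TPM in WT, and Rpl32 averaged 10625 ± 2841 TPM in Ptch1cKO and 10114 ± 1045 TPM in WT (SD, n = 4 each). The remaining 7 of the 83 members were too low to be tested. Rpl26 had 0 counts in all 8 libraries, where 3 counts would be 0.416 to 0.739 CPM per library. Rpl34 had 0, 3, 0 and 1 counts in Ptch1cKO and 0, 1, 0 and 0 counts in WT, and Rpl30 had 2, 0, 0 and 0 counts in Ptch1cKO and 1, 0, 0 and 0 counts in WT. All 3 encode core proteins of the large subunit, and why so few reads were assigned to them was not tested. Of the 82 members with an annotated coding sequence, 29 share every 50-base word with another gene's transcripts and 67 share at least 50% of them, so levels of single members are uncertain. Exons of 13 members also overlap a protein-coding gene on the opposite strand, among them Rpl12, Rpl31 and Rpl32, and the sources used here do not say whether counting used strand.

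Among the members, 7 are paralogs of another ribosomal protein. Rpl10l and Rpl39l, known from the testis, and Rpl3l, known from muscle, had 1, 3 and 11 counts over the 4 Ptch1cKO libraries, against 0, 1 and 5 counts over the 4 WT libraries. Their partners Rpl10, Rpl39 and Rpl3 had 19299, 2726 and 10254 counts in Ptch1cKO and 20697, 3083 and 10334 counts in WT. Rps4l had 7 counts in Ptch1cKO and 5 in WT, beside 34304 in Ptch1cKO and 31397 in WT for Rps4x. Rpl7l1 averaged 3.14 ± 1.31 CPM in Ptch1cKO and 2.37 ± 0.447 CPM in WT, and Rpl7 averaged 75.4 ± 16.2 CPM in Ptch1cKO and 64.4 ± 7.75 CPM in WT (SD, n = 4 each). None of the tested paralogs or partners was called by edgeR.

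Rpl22 and Rpl22l1 can replace each other in the large subunit, and Rpl22 is known to repress Rpl22l1. Rpl22l1 had 34.2, 41.0, 60.3 and 45.0 CPM in Ptch1cKO replicates 1 to 4, against 51.3, 62.1, 40.8 and 52.3 CPM in WT replicates 1 to 4, and the groups overlapped (log2 fold change -0.20, SE 0.20). Rpl22 had 80.8, 90.003, 121.5 and 76.2 CPM in Ptch1cKO, against 85.5, 105.1, 65.1 and 88.9 CPM in WT (log2 fold change 0.09, SE 0.18). Of the counts of both genes together, Rpl22l1 took 29.8, 31.3, 33.2 and 37.1% in Ptch1cKO replicates 1 to 4, and 37.5, 37.1, 38.5 and 37.0% in WT replicates 1 to 4. Ptch1cKO replicates 1 to 3 were below all WT libraries and replicate 4 was level with them. This share was not tested, and neither gene passed edgeR's test (adjusted p = 0.812 for Rpl22l1 and 0.925 for Rpl22).

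Rps27 and Rps27l encode near-identical small subunit proteins, and Rps27l is known as a p53 target. Their coding sequences have 252 bases each, of which 192 are identical (76.2%). The first 60 coding bases are shown because they carry 18 of the differences, in capitals, by which reads of the 2 genes can be told apart.
Rps27, chromosome 3: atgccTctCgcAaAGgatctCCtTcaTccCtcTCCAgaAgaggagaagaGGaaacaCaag
Rps27l, chromosome 9: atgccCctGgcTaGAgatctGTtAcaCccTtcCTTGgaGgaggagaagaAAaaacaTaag
Rps27 had 39 counts over the Ptch1cKO and 45 over the WT libraries, and Rps27l had 82 counts over the Ptch1cKO and 70 over the WT libraries. Rps27l thus took 46.9 to 83.3% of the pair's counts in Ptch1cKO and 50 to 73.9% in WT, ranges that overlap. All 50-base words of the Rps27 coding sequence occur in other annotated genes, foremost Rps27rt, so the Rps27 count is uncertain. Log2 fold changes were -0.14 (SE 0.51) for Rps27 and 0.36 (SE 0.40) for Rps27l.

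Of the members, 4 lie on the X chromosome. Rps4x had 1265, 1486, 1996 and 1442 CPM in Ptch1cKO replicates 1 to 4, against 1429, 1424, 1081 and 1258 CPM in WT replicates 1 to 4 (log2 fold change 0.25, SE 0.15, edgeR adjusted p = 0.637). Rpl10, which joins the large subunit last and readies it for translation, averaged 864 ± 177 CPM in Ptch1cKO and 857 ± 96.0 CPM in WT. Rpl36a averaged 421 ± 98.4 CPM in Ptch1cKO and 368 ± 41.2 CPM in WT, and Rpl39 averaged 123 ± 27.7 CPM in Ptch1cKO and 127 ± 14.5 CPM in WT (SD, n = 4 each). The WT libraries with Xist counts, replicates 2 and 3, were not on 1 side of the others: Rpl10 had its highest WT level in replicate 2 (949 CPM) and its lowest in replicate 3 (722 CPM). With only the 6 libraries under 10 Xist counts, the log2 fold change of Rpl10 was -0.02, against 0.01 with all 8.

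Other parts of the translation machinery, given as lists, also held no called gene by edgeR. Of 19 tested translation factors with TOP mRNAs, 14 were above 0 (median log2 fold change 0.09) and 2 had an unadjusted p under 0.05 (10.5%, against 9.34% of all genes tested). Btf3, a subunit of the nascent polypeptide-associated complex, had 71.0, 94.7, 100.4 and 77.8 CPM in Ptch1cKO, against 69.6, 67.7, 65.3 and 62.4 CPM in WT, with no overlap (log2 fold change 0.37, SE 0.15, edgeR adjusted p = 0.470). Of 34 initiation and elongation factors 18 were above 0 (median 0.07) and 5 had an unadjusted p under 0.05 (14.7%, against 9.34% of all genes tested). The RNA helicase Eif4a2 had 394, 349.9, 377 and 337 CPM in Ptch1cKO, against 465, 482, 429 and 484 CPM in WT, with no overlap (log2 fold change -0.35, SE 0.11, edgeR adjusted p = 0.349).

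Among 20 tested regulators of mTORC1 and TOP mRNAs, 5 were above 0 (median -0.09), and 4 had an unadjusted p under 0.05, all with a lower Ptch1cKO level (20.0% of the list, against 9.34% of all genes tested). Mtor, the kinase itself, had 149, 162, 131 and 149.7 CPM in Ptch1cKO, against 185, 140.3, 237 and 209.99 CPM in WT, and the groups overlapped (log2 fold change -0.38, SE 0.16, edgeR adjusted p = 0.460). Of 46 ribosome biogenesis factors 23 were above 0 (median -0.01), of 11 genes of RNA polymerase I 4 were (median -0.14), and of 13 nascent chain and ribosome-associated factors 5 were (median -0.07). The 5 tested ribosomal components outside the symbol rule had a median of 0.13 with 4 above 0, led by Gnb2l1 at 493 ± 99.4 CPM in Ptch1cKO and 413 ± 59.9 CPM in WT (SD, n = 4 each). Of 7 ribosomal protein pseudogene rows 3 were tested and 1 was above 0.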

How the data were processed

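RNA from 8 sorted cell samples was copied to cDNA with a low-input system and enriched with exome capture probes, per the labels' protocols, so levels of different genes depend on capture as well as abundance. Reads were processed with bcl2fastq 2.18 and STAR 2.5 on mm10, per the submitters' processing notes. The sources used here name no counting program, annotation or strand setting. Per the file, the authors deposited counts as whole, unnormalized reads per gene symbol. They also deposited TPM values of their own.

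The analysis used edgeR 4.0.16 in R 4.3.3: filterByExpr by group (minimum count 10) kept 10954 of 20578 genes with a count, libraries were scaled with TMM, and the quasi-likelihood F test (robust) compared 4 Ptch1cKO with 4 WT, with Benjamini-Hochberg adjustment over all genes tested and 0.05 as threshold. CPM use TMM-scaled library sizes, and the SE is the size of the log2 fold change over the root of F. Alternatives were RLE and upper-quartile scaling, TMM without the ribosomal protein rows, no filter, DESeq2 1.42.0, limma 3.58.1 on log2(TPM + 1) of genes with at least 1 TPM in 4 libraries, the replicate number as a block, fewer libraries, and leaving out each library. Same-numbered libraries did not deviate together (correlations -0.156 to 0.0135), so numbers were not used as pairs, and no 2 libraries of a genotype agreed within sampling noise. Column names carry prefixes of unknown meaning. No prefix is shared between the genotypes, so prefix and genotype cannot be told apart. Ptch1cKO replicates 3 and 4 each have a prefix of their own. Replicate numbers follow the sample titles, and the column names give these 2 libraries higher numbers. Coding sequence, GC content and shared 50-base words come from GENCODE M21 on GRCm38, the assembly of mm10, and start windows from RefSeq, GRCm38.p6.

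Genes named are Ptch1, the 5 tested members with the smallest p in each direction, the highest and 3 lowest detected in TPM, X-linked members, paralogs with partners, the 2 with the largest range, and the smallest p in each direction of each list; of the marker lists and some others only sums or counts are given. Members placed by role and the genes named for a library pattern were chosen after their values were seen. The members and lists were chosen with earlier results of these data known. Some members and components picked by these rules are not reported here.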

Additional observations from a re-analysis of the deposited data

Results flagged for a closer look

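In 19 of 125 groups of 4 libraries examined, 1 library lay far from the other 3 by Dixon's ratio at the 95% level. For a single group chance gives about 1 in 20. These groups share the same libraries, so that rate is no yardstick for the number of flags. A group with counts in only 1 library is flagged whatever its count. Of the 19 flags, 14 concern Ptch1cKO replicate 3. There the ribosomal protein share of counts was 4.46%, against 2.74 to 2.96% in the other Ptch1cKO libraries, with 2.85% for the large and 1.603% for the small subunit. Single members high in that library were Rpl4 (2225 CPM), Rplp1 (1058 CPM), Rpl7a (461 CPM), Rplp2 (348 CPM) and Rpl29 (48.7 CPM). Outside the symbol rule, Gnb2l1 (642.0 CPM), Rpl36al (40.1 CPM) and the pseudogene rows Rpl14-ps1 (17.7 CPM) and Rps15a-ps6 (8.61 CPM) were high there too. In WT replicate 4, Rpl36 was low at 45.3 CPM, against 142 to 160.4 CPM in the other WT libraries.

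The flags of 3 members rest on 1 to 3 reads each: Rpl10l (0.246 CPM) and Rpl39l (0.738 CPM) in Ptch1cKO replicate 3, Rpl30 (0.284 CPM) in Ptch1cKO replicate 1, and Rpl30 and Rpl39l (0.168 CPM each) in WT replicate 1, with 0 counts in the other libraries of each group. Eif2b4, a subunit of the initiation factor eIF2B, was high in Ptch1cKO replicate 2 at 32.8 CPM, against 12.9 to 15.5 CPM in the other Ptch1cKO libraries.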

How the results depend on the processing

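Of 40 named genes recomputed, 30 kept the sign of their log2 fold change under every alternative. The count of ribosomal protein genes called was 0 in every fit except edgeR without the filter on low counts, which called 1, Rpl7a (log2 fold change 0.57, adjusted p = 0.0178, against 0.146 to 0.563 under its other alternatives). Of all genes, that fit called 199, among them Ptch1 (-0.66, adjusted p = 0.00235), against 11 with the filter; DESeq2 called 83, limma on TPM 2, the replicate block 5, and the 6 libraries with under 10 Xist counts 3. Leaving out 1 library gave 1 to 19 called genes: 6, 19, 4 and 2 without Ptch1cKO replicates 1 to 4, and 2, 1, 1 and 1 without WT replicates 1 to 4. Without the filter 8 of 82 members had an unadjusted p under 0.05 by edgeR, against 2014 of all 20578 genes. The large minus small subunit median (0.02) lay between -0.0443 and 0.0713 when 1 library was left out, at the low end without WT replicate 4.

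Most signs that changed belong to values near 0 or to genes with wide spread. Of these genes Rpl32 lay farthest from 0 with all 8 libraries, at 0.20 (SE 0.18), and its sign changed only when 1 library was left out. On TPM, log2 fold changes were -0.0587 for Rpl9, -0.12 for Rpl10, -0.0246 for Rpl22 and -0.0121 for Rpl3. With the replicate block it was -0.0040 for Rpl10, and with the 6 libraries under 10 Xist counts -0.0240 for Rpl10 and 0.32 for Rpl36. Without Ptch1cKO replicate 2 and WT replicate 4, chosen after seeing the data, it was 0.0113 for Rpl36al. Leaving out 1 library gave -0.20 to 0.0447 for Rpl39, -0.12 to 0.0655 for Rpl36al, -0.38 to 0.10 for Rpl36, -0.0913 to 0.20 for Rpl9, -0.0360 to 0.33 for Rpl32, -0.13 to 0.11 for Rpl10, -0.0667 to 0.21 for Rpl22, -0.0022 to 0.16 for Rpl3, -0.15 to 0.29 for Rps15a-ps6 and -0.38 to 0.14 for Rps27. The cause of these changes was not tested.

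With 4 libraries a group, differences of single members as large as 0.57 on the log2 scale (Rpl7a, SE 0.16) were not called by edgeR. Sequence shared with other genes makes single levels uncertain, and intervals cover counting error only.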

Other observations

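Mitochondrial ribosomal proteins, which build the separate ribosome inside mitochondria, were measured in the same libraries. Of 77 genes 70 were tested, 42 had a log2 fold change above 0 (60%, median 0.06) and none was called by edgeR, with 6 at an unadjusted p under 0.05 (8.57%, against 9.34% of all genes tested). Mrpl20 had 5.11, 4.34, 3.69 and 3.47 CPM in Ptch1cKO, against 1.35, 1.89, 1.96 and 2.68 CPM in WT, with no overlap (log2 fold change 1.09, SE 0.39, edgeR adjusted p = 0.404). Mrpl52 averaged 22.9 ± 4.21 CPM in Ptch1cKO and 32.4 ± 7.54 CPM in WT (SD, n = 4 each).

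Rn45s, the row of the precursor of the ribosomal RNAs, had 29422, 23888, 28092 and 23077 CPM in Ptch1cKO replicates 1 to 4, against 20097, 20948, 25936 and 19051 CPM in WT replicates 1 to 4. The groups overlapped only through WT replicate 3, and the log2 fold change of 0.28 (SE 0.13) did not pass (edgeR adjusted p = 0.541). Unlike the ribosomal protein share, its share of counts was highest in Ptch1cKO replicate 1 (2.94%) and lay at 2.81% in Ptch1cKO replicate 3.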
